A study of Mus musculus with 8 samples.

Results

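The genes described here build and stabilise the extracellular matrix of the lung. They comprise fibrillar, other and basement membrane collagens, elastic fibre components, enzymes and a chaperone that fold and crosslink collagen and elastin, matrix glycoproteins and proteoglycans. A list of 40 genes in 7 classes was drawn up by gene name and role, with earlier results of these data known, and 38 of them were measured, among 13854 genes tested in all. Fbn1 and Loxl2 were not analysed here, because no probe set names either of them alone. RNA came from the first right lobe of lungs of male ICR mice, an outbred strain, aged 5 to 6 weeks. Each mouse was instilled through the trachea, exposed by a neck incision under pentobarbital. The treated groups received SWCNT, which are single-walled carbon nanotubes, at 0.5 mg per animal. They were suspended in 50 µl of a 0.1% solution of the non-ionic surfactant PF68 (Pluronic F-68), and the control groups received PF68 as the solvent. Lungs were taken on day 1 or day 7, which gave 4 groups: PF68 day 1, SWCNT day 1, PF68 day 7 and SWCNT day 7. Each group held 2 arrays, labelled as biological replicates, without naming animals, so the spread behind each p-value is that of the arrays and may be technical. All 4 groups shared the surgery, the anaesthetic and PF68, and lungs of mice without instillation were not analysed here. In whole lung tissue, fewer cells of a type and less RNA per cell cannot be told apart.

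Fibrillar collagens are made as procollagen chains, which are hydroxylated and folded in the endoplasmic reticulum, secreted, trimmed and then laid down as fibrils. Lysyl oxidases join lysine residues of neighbouring collagen or elastin molecules into covalent crosslinks, which give the fibres their strength. In the lung, elastic fibres provide the recoil of the alveolar wall, type IV collagen forms the sheet under epithelium and endothelium, and excess fibrillar collagen and crosslinking are the features for which pulmonary fibrosis is known.

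Promoter windows are shown for 4 collagen genes whose probe sets moved in the comparisons below: Col1a2 and Col3a1, fibrillar chains called on day 7, and Col4a1 and Col4a2, the basement membrane chains that share a head-to-head start region. Each window runs from 250 bases before to 50 bases after the annotated start, 5′ to 3′ on the gene's own strand, from RefSeq (GRCm38.p6). Capitals mark matches, on either strand, to the TATA box (searched as TATAAA), to CCAAT or to the GC box (searched as GGGCGG). The windows lie at chr6:4505368-4505667 (Col1a2, plus strand), chr1:45311288-45311587 (Col3a1, plus strand), chr8:11312777-11313076 (Col4a1, minus strand) and chr8:11312555-11312854 (Col4a2, plus strand).
Col1a2: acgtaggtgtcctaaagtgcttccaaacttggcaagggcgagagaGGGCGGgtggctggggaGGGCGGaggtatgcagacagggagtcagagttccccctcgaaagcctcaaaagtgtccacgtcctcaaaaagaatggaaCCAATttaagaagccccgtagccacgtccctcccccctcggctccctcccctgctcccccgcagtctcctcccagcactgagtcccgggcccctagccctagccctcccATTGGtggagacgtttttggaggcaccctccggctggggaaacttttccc
Col3a1: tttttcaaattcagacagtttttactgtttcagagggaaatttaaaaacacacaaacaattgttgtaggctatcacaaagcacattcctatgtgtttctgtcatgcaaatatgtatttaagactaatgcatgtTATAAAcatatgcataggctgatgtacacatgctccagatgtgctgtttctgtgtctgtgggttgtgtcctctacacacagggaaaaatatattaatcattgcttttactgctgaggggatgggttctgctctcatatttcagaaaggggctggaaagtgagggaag
Col4a1: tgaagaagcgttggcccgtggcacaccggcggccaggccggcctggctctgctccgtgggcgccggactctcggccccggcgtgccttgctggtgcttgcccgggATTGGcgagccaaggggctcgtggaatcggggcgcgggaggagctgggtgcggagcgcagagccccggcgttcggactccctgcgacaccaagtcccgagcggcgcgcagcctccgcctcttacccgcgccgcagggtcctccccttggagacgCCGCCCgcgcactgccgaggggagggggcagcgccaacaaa
Col4a2: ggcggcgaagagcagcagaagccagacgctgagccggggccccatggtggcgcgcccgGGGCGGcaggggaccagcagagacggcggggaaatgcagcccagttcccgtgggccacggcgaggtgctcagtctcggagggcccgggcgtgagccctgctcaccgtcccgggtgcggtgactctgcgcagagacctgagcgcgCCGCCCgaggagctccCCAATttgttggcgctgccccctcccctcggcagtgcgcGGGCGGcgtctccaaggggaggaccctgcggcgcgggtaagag
The Col4a1 and Col4a2 windows overlap by 78 bases on opposite strands. The Col1a2 window held 2 CCAAT and 2 GGGCGG matches, whereas the Col3a1 window held 1 TATAAA match. The Col4a2 window held 3 GGGCGG matches and 1 CCAAT match, and the Col4a1 window held 1 of each. A window was at hand for 23 of the measured genes. GGGCGG occurred in 16 of these 23, against 35.7% of 32851 mouse windows of the same length, and CCAAT in 9 of 23, against 37.4%. TATAAA occurred in 4 of 23 (Col3a1, Postn, Tnc and Ogn), against 13.6% of all windows. The AP-1 letters TGANTCA were found in 1 of 23 windows (Col6a1), against 7.81%. These matches describe letters and were not tested against the expression values. Along the chromosomes, 4 pairs of listed genes were neighbours: Col3a1 and Col5a2, Col4a1 and Col4a2, Col6a1 and Col6a2, and Dcn and Lum.

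All values are the deposited normalised signals, read as log2. Every array had the same median, -0.63, and the same range, -5.88 to 8.31, so a value can be placed within an array, but levels of different probe sets were not compared with each other. All 38 genes passed the filter on dim probe sets, and 2 of them, Col15a1 and Vcan, fell below the median on at least 1 array. Lung epithelial markers (8 measured of 9) were at or above the median on at least 1 array of every group. The difference between 3′ and 5′ probe sets of beta-actin, a sign of RNA length, was 2.02 ± 0.023 (SD, n = 2) for PF68 and 1.34 ± 0.033 for SWCNT on day 1, then 3.27 ± 0.029 for PF68 and 2.97 ± 0.035 for SWCNT on day 7. The 4 groups did not overlap in this measure, with SWCNT day 1 lowest and PF68 day 7 highest. It moved with the results below, and its part in them was not tested. Added hybridization spikes averaged 4.72, 4.94, 5.31 and 4.79 in the same order, which bears on any shift of all genes together.

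On day 1, the lungs given SWCNT had more RNA of a fibrillar collagen chain (Col1a1), a basement membrane collagen chain (Col4a1), the collagen chaperone Serpinh1 and the proteoglycan decorin (Dcn) than the PF68 lungs, by 1.57- to 1.83-fold. These 4 of 38 genes, or 10.53%, passed an adjusted p of 0.05 in limma's moderated test, all higher in SWCNT. Over all genes tested, 2.17% were called, 0.931% as higher and 1.23% as lower. At an unadjusted p under 0.05, 13 of the 38 were higher and 4 lower, beside 1136 and 1436 of all 13854 genes. The median difference of the 38 was 0.23, beside -0.02 for all genes. Of the 38, 26 lay above 0, and of all 13854 genes 6617. Equalising the arrays on their spikes shifted every gene by -0.22, to a median of 0.01 for the 38 and -0.24 for all genes. That scaling called 101 genes higher and 636 lower, against 129 and 171 on the deposited scale. Of the 38 it called 1 higher, Dcn, and 3 lower, Fbln5, Mfap4 and Vcan, while Col1a1, Col4a1 and Serpinh1 stayed above 0 but lost their calls (adjusted p = 0.0781, 0.0601 and 0.0706). All 4 day 1 calls were lost when any 1 of the 8 arrays was left out, which leaves 1 array in a group. Calls over all genes also fell in each of these fits. In the 18 alternatives, these fits included, the differences of the 4 genes lay between 0.43 (Serpinh1) and 0.96 (Dcn).

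Markers of tissues outside the lung parenchyma also stood apart in the SWCNT day 1 arrays. The summed linear signal of 9 skeletal muscle markers was 92.5 to 96.7 there, against 5.04 to 5.92 in PF68 day 1, 5.49 to 6.98 in PF68 day 7 and 5.08 to 5.79 in SWCNT day 7. In limma, 7 of these 9 rose on day 1. In the other groups 6, 5 and 7 of the 9 were below the array median on both arrays, and 0 of 9 in SWCNT day 1. Adipocyte markers (5 measured of 8) summed to 99.4 to 102.2, against 20.6 to 21.9 in PF68 day 1, 36.6 to 36.7 in PF68 day 7 and 21.4 to 23.6 in SWCNT day 7, with 3 of 5 called higher on day 1. Smooth muscle markers summed to 97.7 to 101.0, against 59.2 to 60.4 in PF68 day 1, and 2 of 8 were called higher. Squamous epithelial markers summed to 32.7 to 36.3, against 3.98 to 4.03 in PF68 day 1, with 3 of 8 called higher. Cartilage markers (4 measured of 10) summed to 14.6 to 15.3, against 4.86 to 5.48 in PF68 day 1 but 7.66 to 18.0 in PF68 day 7, with 1 of 4 called higher on day 1. The part of these markers in the day 1 differences was not tested. Fibroblast markers (13 measured) summed to 290.9 to 295.4 in PF68 day 1 and 274.4 to 279.7 in SWCNT day 1, and limma called 0 of 13 on day 1.

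On day 7, genes of fibrillar collagen and of elastic fibres made up most of the calls. Fibrillar collagen chains Col1a1, Col1a2, Col3a1 and Col5a2, elastin (Eln), the microfibril protein Mfap4, lysyl oxidase (Lox) and fibronectin (Fn1) were higher in SWCNT than in PF68, by 1.62- to 2.94-fold. Thus 8 of 38 genes, or 21.05%, were called, all higher, against 2.18% of all genes tested, 1.4% as higher and 0.78% as lower. At an unadjusted p under 0.05, 13 of the 38 were higher and 2 lower, beside 1810 and 1395 of all 13854 genes. The median difference of the 38 was 0.18, beside 0.02 for all genes. Of the 38, 30 lay above 0, and of all 13854 genes 7227. Col1a1 was the 1 gene called on both days. Equalising on the spikes shifted every gene by 0.53, to a median of 0.71 for the 38 and 0.55 for all genes, and called 5813 genes higher and 80 lower, against 194 and 108 on the deposited scale. The day 7 calls were lost when 1 array at a time was left out, except that of Mfap4 without PF68 day 7 replicate 1. Calls over all genes also fell in each of these fits. In the 18 alternatives, these fits included, the differences of the 8 genes lay between 0.44 (Col1a1) and 2.09 (Mfap4).

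For each of these 8 genes, both PF68 day 7 arrays lay below every other array of the study, day 1 arrays included. The SWCNT day 7 arrays were above both PF68 day 1 arrays for 2 of the 8 (Eln and Fn1), below both for 5 (Col1a1, Col1a2, Col5a2, Mfap4 and Lox) and overlapped them for Col3a1. The day 7 difference between treatments and the change with time in PF68 share the PF68 day 7 arrays. Macrophage markers (9 measured of 10) summed to 233.4 to 237.2 in SWCNT day 7, against 178.3 to 185.7 in PF68 day 7, with 2 of 9 called higher, and their part in the day 7 differences was not tested. Fibroblast markers summed to 274.4 to 285.5 in SWCNT day 7 and 268.4 to 273.6 in PF68 day 7, with 1 of 13 called higher.

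**Figure D1:**
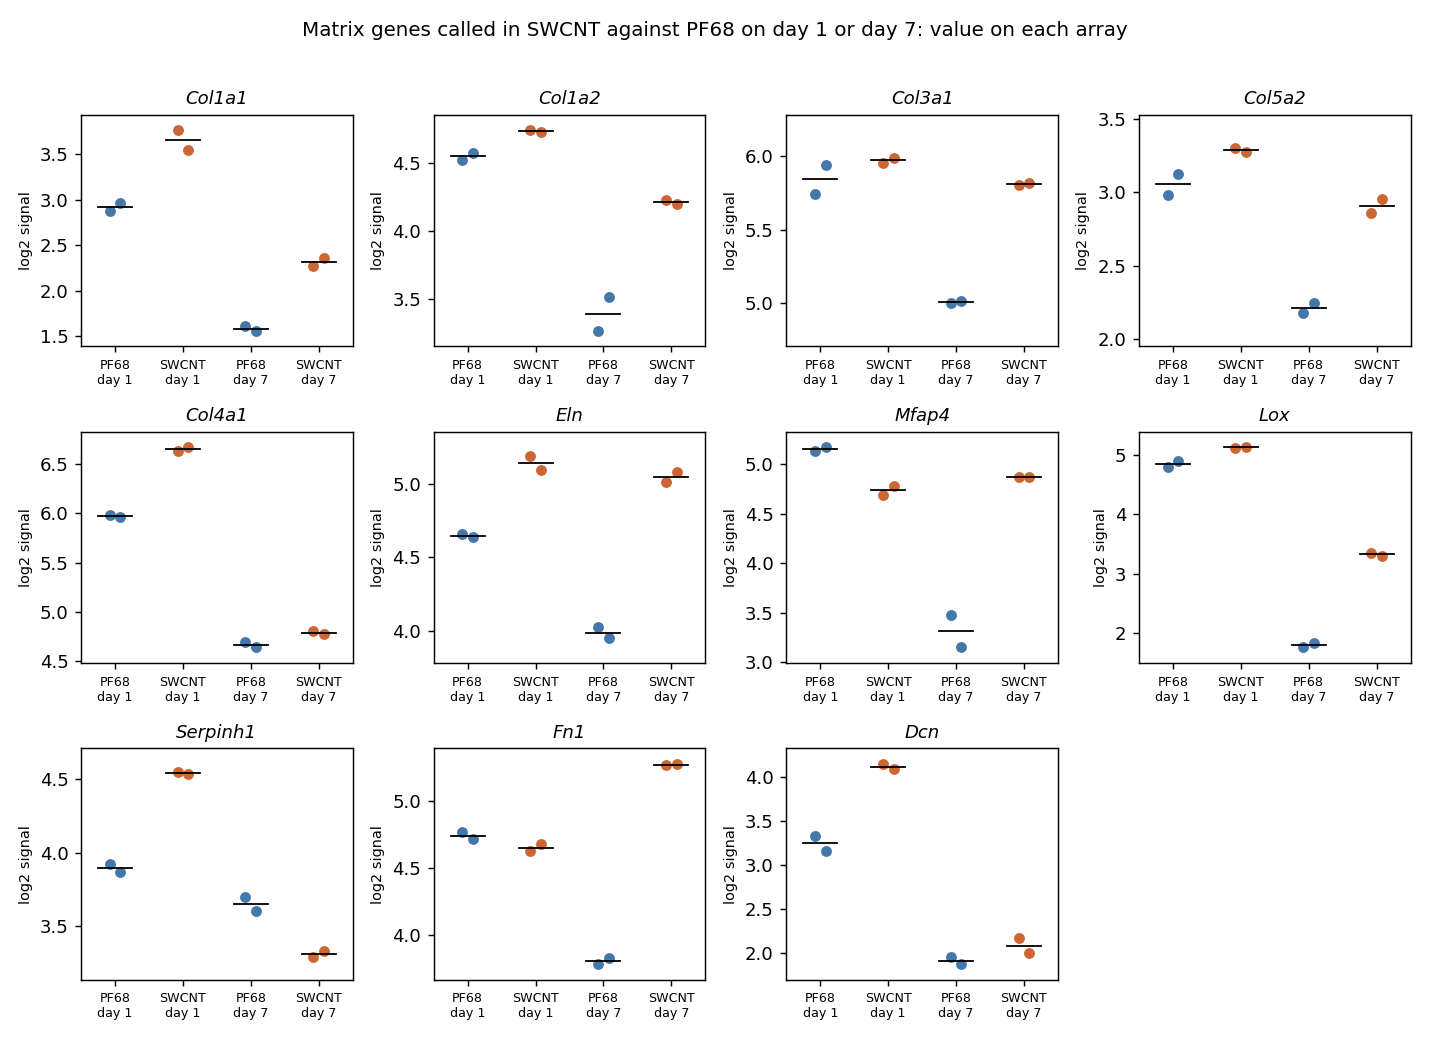
Normalised log2 signal on each of the 8 arrays (y axis, own scale in each panel) for the 11 matrix genes called in SWCNT against PF68 on day 1 or day 7, with points for arrays and a bar for each group mean (n = 2). For the 8 genes called on day 7, both PF68 day 7 arrays are the lowest points of the panel, while for Col4a1, Serpinh1 and Dcn both SWCNT day 1 arrays are the highest.

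Among the fibrillar collagens, which carry the tensile load of the interstitium, 1 of 5 was called on day 1 and 4 of 5 on day 7. Their median difference was 0.18 on day 1 and 0.73 on day 7. Col1a1, the main chain of type I collagen, read 2.88 and 2.97 (PF68) and 3.76 and 3.55 (SWCNT) on day 1, then 1.60 and 1.56 (PF68) and 2.27 and 2.36 (SWCNT) on day 7. The 4 groups did not overlap, with SWCNT above PF68 on both days and day 1 above day 7 in both treatments. Its difference was 0.74 ± 0.12 (SE) on day 1 (adjusted p = 0.0487) and 0.73 ± 0.12 on day 7 (adjusted p = 0.0486), which is 1.66-fold on each day. A second, dimmer Col1a1 probe set gave 0.38 on day 1 and 0.14 on day 7.

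Col1a2, the partner chain of Col1a1 in type I collagen, read 4.52 and 4.58 (PF68) and 4.74 and 4.72 (SWCNT) on day 1, then 3.27 and 3.52 (PF68) and 4.23 and 4.20 (SWCNT) on day 7. The PF68 day 7 arrays were the lowest and the SWCNT day 7 arrays the next. The day 7 difference was 0.82 ± 0.12 (adjusted p = 0.0412, 1.77-fold), and the day 1 difference was 0.18 ± 0.12 (adjusted p = 0.495). Col3a1, the chain of type III collagen, read 5.75 and 5.94 (PF68) and 5.96 and 5.99 (SWCNT) on day 1, then 5.00 and 5.02 (PF68) and 5.80 and 5.82 (SWCNT) on day 7. Its day 7 difference was 0.80 ± 0.11 (adjusted p = 0.0392, 1.74-fold). Further probe sets of both genes gave larger day 7 differences, 1.30 for Col1a2 and 1.45 for Col3a1. The difference between the day 7 and the day 1 effect did not pass the threshold for either gene (0.64 ± 0.17, adjusted p = 0.114, and 0.67 ± 0.16, adjusted p = 0.092).

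Type V collagen nucleates fibrils and sets their width. Its chain Col5a2 read 2.98 and 3.12 (PF68) and 3.30 and 3.27 (SWCNT) on day 1, then 2.18 and 2.24 (PF68) and 2.86 and 2.95 (SWCNT) on day 7. The 2 day 7 groups were well apart, by 0.70 ± 0.11 (adjusted p = 0.0457, 1.62-fold), and a second probe set gave 0.93. Its neighbouring gene Col3a1 and Col5a2 thus both stood higher on day 7. Col5a1 read 1.79 and 1.71 (PF68) and 1.84 and 1.71 (SWCNT) on day 1, then 1.13 and 1.31 (PF68) and 1.67 and 1.54 (SWCNT) on day 7. The day 7 arrays of both treatments did not overlap, but the difference of 0.38 ± 0.12 did not pass the threshold (adjusted p = 0.146).

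The 7 other collagens of the list are beaded (type VI), short-chain (type VIII), fibril-associated (type XIV) or multiplexin (types XV and XVIII) forms. In limma 0 of 7 passed the threshold on either day, with 1 of 7 higher at an unadjusted p under 0.05 on each day. That gene was Col8a1, which read 0.29 and -0.05 (PF68) and 0.77 and 1.73 (SWCNT) on day 1, then -0.31 and -0.60 (PF68) and 0.87 and 0.49 (SWCNT) on day 7. SWCNT arrays were above PF68 arrays on both days, and the replicates lay far apart, so that the differences of 1.13 ± 0.34 on both days had adjusted p-values of 0.168 and 0.129. Col15a1, whose protein links basement membranes to the interstitium, read -0.44 and -0.61 (PF68) and -0.94 and -1.13 (SWCNT) on day 1, then -0.67 and -0.36 (PF68) and 0.20 and -0.61 (SWCNT) on day 7. Most of these values lie near or below the array median. The type VI chains Col6a1, Col6a2 and Col6a3 differed by -0.09 to 0.16 on day 1 and by 0.01 to 0.18 on day 7, with standard errors of 0.10 to 0.13.

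Basement membrane genes were called on day 1 for 1 of 6 and on day 7 for 0 of 6, with 4 and 1 of the 6 higher at an unadjusted p under 0.05. All 6 differences on day 1 were above 0, with a median of 0.40 beside -0.02 for all genes. Col4a1, a chain of the ubiquitous type IV network, read 5.99 and 5.96 (PF68) and 6.63 and 6.67 (SWCNT) on day 1, then 4.69 and 4.64 (PF68) and 4.80 and 4.78 (SWCNT) on day 7. The SWCNT day 1 arrays were the highest and both day 7 groups were close together, far below the day 1 groups. The difference was 0.68 ± 0.10 on day 1 (adjusted p = 0.038, 1.6-fold) and 0.13 ± 0.10 on day 7 (adjusted p = 0.49). A second probe set gave 0.74 and 0.01.

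Col4a2, transcribed from the start region shown above for both genes, read 5.47 and 5.49 (PF68) and 5.79 and 5.86 (SWCNT) on day 1, then 4.75 and 4.79 (PF68) and 4.77 and 4.84 (SWCNT) on day 7. The order of the groups was that of Col4a1, but the day 1 difference of 0.35 ± 0.10 did not pass the threshold (adjusted p = 0.156). Col4a3, a chain of the network restricted to alveolar, glomerular and a few other basement membranes, read 2.38 and 2.58 (PF68) and 3.03 and 3.26 (SWCNT) on day 1, then 1.18 and 0.86 (PF68) and 1.61 and 2.01 (SWCNT) on day 7. SWCNT was above PF68 on both days without overlap, by 0.67 ± 0.20 (adjusted p = 0.166) and 0.79 ± 0.20 (adjusted p = 0.0963). Nidogen (Nid1), which links laminin to type IV collagen, read 3.998 and 4.05 (PF68) and 4.28 and 4.23 (SWCNT) on day 1, then 3.53 and 3.64 (PF68) and 3.71 and 3.78 (SWCNT) on day 7. Its differences between treatments were 0.23 ± 0.11 and 0.16 ± 0.11, neither of which passed. The laminin chain Lama4 read 1.93 and 1.91 (PF68) and 2.06 and 2.30 (SWCNT) on day 1, then 2.06 and 0.32 (PF68) and 1.69 and 1.27 (SWCNT) on day 7. A single array, PF68 day 7 replicate 2, set the spread of Lama4 and its standard error of 0.54.

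Elastic fibre genes were called for 2 of 6 on day 7, and for 0 of 6 on day 1, when 1 was higher and 2 were lower at an unadjusted p under 0.05. Elastin (Eln), the core of the fibre, read 4.65 and 4.64 (PF68) and 5.19 and 5.09 (SWCNT) on day 1, then 4.02 and 3.95 (PF68) and 5.01 and 5.08 (SWCNT) on day 7. Both SWCNT groups lay above both PF68 groups. The difference was 1.06 ± 0.10 on day 7 (adjusted p = 0.0227, 2.08-fold), and 0.49 ± 0.10 on day 1 (adjusted p = 0.0869). A second Eln probe set gave 1.26 and 0.75. Mfap4, a glycoprotein of elastic microfibrils that binds elastin and collagen, read 5.13 and 5.17 (PF68) and 4.69 and 4.78 (SWCNT) on day 1, then 3.48 and 3.15 (PF68) and 4.87 and 4.88 (SWCNT) on day 7. PF68 was the higher group on day 1 and by far the lower on day 7. The day 7 difference was 1.56 ± 0.14 (adjusted p = 0.0185, 2.94-fold), the day 1 difference was -0.41 ± 0.14 (adjusted p = 0.202), and the effect differed between the days by 1.97 ± 0.20 (adjusted p = 0.0211). No further probe set was at hand for Mfap4.

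The fibulins, which help assemble elastic fibres, did not pass the threshold between treatments. Fbln5, needed for elastin assembly, read 3.45 and 3.60 (PF68) and 2.90 and 3.02 (SWCNT) on day 1, then 3.38 and 3.48 (PF68) and 3.40 and 3.58 (SWCNT) on day 7. The SWCNT day 1 arrays alone were low, by 0.56 against PF68 (a difference of -0.56 ± 0.13, adjusted p = 0.0975). Fbln2 read 0.44 and 0.14 (PF68) and 0.63 and 0.70 (SWCNT) on day 1, then 0.88 and 1.25 (PF68) and 0.38 and 0.44 (SWCNT) on day 7. The PF68 day 7 arrays were the highest, and the day 7 difference was -0.65 ± 0.17 (adjusted p = 0.101). Fbln1 and Mfap5 differed by -0.22 and 0.29 on day 1 and by 0.19 and 0.30 on day 7, with standard errors of 0.16 to 0.17. Dimmer second probe sets gave 0.32 on day 1 and -0.02 on day 7 for Fbln1, and 0.46 and 1.82 for Mfap5.

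Of the 4 measured genes of crosslinking and collagen folding, Serpinh1 was called on day 1 and Lox on day 7. Lysyl oxidase (Lox), which crosslinks both collagen and elastin, read 4.79 and 4.90 (PF68) and 5.12 and 5.12 (SWCNT) on day 1, then 1.76 and 1.84 (PF68) and 3.35 and 3.30 (SWCNT) on day 7. Both day 7 groups were far below both day 1 groups, and the PF68 day 7 arrays were lowest. The difference was 1.52 ± 0.10 on day 7 (adjusted p = 0.0114, 2.87-fold) and 0.28 ± 0.10 on day 1 (adjusted p = 0.238). The effect was larger on day 7 by 1.24 ± 0.15 (adjusted p = 0.027). Of 2 further Lox probe sets, the brighter gave 1.82 on day 7 and 0.03 on day 1, and the dimmer gave -0.05 and -1.497.

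Serpinh1, the chaperone that holds procollagen in its folded form, read 3.92 and 3.87 (PF68) and 4.55 and 4.54 (SWCNT) on day 1, then 3.70 and 3.60 (PF68) and 3.29 and 3.33 (SWCNT) on day 7. SWCNT arrays were highest on day 1 and lowest on day 7, with no overlap of the groups. The difference was 0.65 ± 0.10 on day 1 (adjusted p = 0.0449, 1.57-fold) and -0.34 ± 0.10 on day 7 (adjusted p = 0.126), and it fell between the days by 0.99 (-0.99 ± 0.14, adjusted p = 0.0396). A second Serpinh1 probe set gave 0.22 and -0.32. Loxl1, a lysyl oxidase relative that acts on elastin, read 3.64 and 3.72 (PF68) and 4.08 and 4.12 (SWCNT) on day 1, then 3.68 and 3.67 (PF68) and 3.68 and 3.60 (SWCNT) on day 7. The SWCNT day 1 arrays alone were high (0.42 ± 0.10, adjusted p = 0.116). A second, dimmer Loxl1 probe set gave -0.31 on day 1, the opposite sign, and -0.10 on day 7. Plod2, which hydroxylates the lysines that enter crosslinks, read 1.81 and 1.99 (PF68) and 2.17 and 2.19 (SWCNT) on day 1, then 1.45 and 1.84 (PF68) and 1.23 and 1.56 (SWCNT) on day 7. Its treatment differences of 0.28 ± 0.18 and -0.25 ± 0.18 did not pass the threshold. A second, dimmer Plod2 probe set gave -0.50 on day 1, the opposite sign, and -0.74 on day 7.

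Of the 5 glycoproteins, which tie cells and growth factors to the matrix, Fn1 was called on day 7, and 0 of 5 were called on day 1, with 2 higher and 1 lower at an unadjusted p under 0.05. Fibronectin (Fn1), an early matrix protein of wound repair to which cells attach, read 4.76 and 4.72 (PF68) and 4.63 and 4.68 (SWCNT) on day 1, then 3.78 and 3.83 (PF68) and 5.26 and 5.28 (SWCNT) on day 7. SWCNT day 7 was the highest group and PF68 day 7 the lowest. The difference was 1.46 ± 0.10 on day 7 (adjusted p = 0.0114, 2.76-fold) and -0.09 ± 0.10 on day 1 (adjusted p = 0.69), and the effect was larger on day 7 by 1.56 ± 0.14 (adjusted p = 0.0156). A second, dim Fn1 probe set, above the median on 2 arrays, gave 0.04 on day 7 and 0.83 on day 1.

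The largest day 1 difference of the list did not pass the threshold. It was that of tenascin C (Tnc), a glycoprotein of injured and developing tissue, at 1.68 ± 0.38 (adjusted p = 0.1). Tnc read -0.62 and 0.49 (PF68) and 1.45 and 1.78 (SWCNT) on day 1, then 0.43 and -0.03 (PF68) and 0.82 and 0.55 (SWCNT) on day 7. The SWCNT day 1 arrays were the highest, and the PF68 day 1 arrays differed widely from each other. Thrombospondin 1 (Thbs1), an activator of latent TGF-beta, read 1.40 and 1.52 (PF68) and 2.48 and 2.76 (SWCNT) on day 1, then -0.48 and 0.18 (PF68) and 0.77 and 0.54 (SWCNT) on day 7. SWCNT was above PF68 without overlap on day 1 (1.16 ± 0.24, adjusted p = 0.0846) and day 7 (0.80 ± 0.24, adjusted p = 0.128).

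Periostin (Postn), a matricellular protein that promotes collagen crosslinking, read 4.67 and 4.63 (PF68) and 4.38 and 4.30 (SWCNT) on day 1, then 3.79 and 3.81 (PF68) and 4.22 and 4.07 (SWCNT) on day 7. PF68 was the higher group on day 1 and the lower on day 7, by -0.31 ± 0.11 (adjusted p = 0.215) and 0.35 ± 0.11 (adjusted p = 0.137). Sparc, a collagen-binding matricellular protein, read 7.69 and 7.58 (PF68) and 7.59 and 7.59 (SWCNT) on day 1, then 7.17 and 7.07 (PF68) and 7.00 and 7.02 (SWCNT) on day 7. Its treatment differences were -0.04 and -0.11, each with an SE of 0.10, and the arrays differed by day. A further Sparc probe set, above the median on all 8 arrays, gave 0.34 on day 1 and 0.66 on day 7, opposite in sign. Another, dim Sparc probe set gave 0.11 and -0.75. The treatment difference of Sparc thus depended on the probe set used.

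Among the 5 proteoglycans, decorin (Dcn), which coats collagen fibrils and binds TGF-beta, was called on day 1. On day 7, 0 of 5 were called, and 0 of 5 passed an unadjusted p of 0.05. Dcn read 3.33 and 3.16 (PF68) and 4.15 and 4.09 (SWCNT) on day 1, then 1.96 and 1.87 (PF68) and 2.16 and 1.999 (SWCNT) on day 7. SWCNT day 1 was highest and both day 7 groups lay more than 1 log2 unit below PF68 day 1. The difference was 0.87 ± 0.12 on day 1 (adjusted p = 0.0352, 1.83-fold) and 0.17 ± 0.12 on day 7 (adjusted p = 0.459). A second, dim Dcn probe set gave 0.91 and 1.13. Lumican (Lum), a neighbour of Dcn that also binds fibrils, read 0.05 and -0.20 (PF68) and 0.43 and 0.26 (SWCNT) on day 1, then -0.56 and -0.09 (PF68) and -0.62 and -0.17 (SWCNT) on day 7. It differed by 0.42 ± 0.23 on day 1 (adjusted p = 0.4). Biglycan (Bgn) read 6.28 and 6.42 (PF68) and 6.27 and 6.24 (SWCNT) on day 1, then 5.89 and 5.90 (PF68) and 6.14 and 5.93 (SWCNT) on day 7, and its treatment differences were -0.09 and 0.14, each with an SE of 0.12. Versican (Vcan), a large hyaluronan-binding proteoglycan, read 0.30 and 0.49 (PF68) and -0.05 and 0.03 (SWCNT) on day 1, then -0.70 and -0.70 (PF68) and -0.60 and -0.60 (SWCNT) on day 7. It was lower in SWCNT on day 1 by value (-0.41 ± 0.11, adjusted p = 0.147).

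**Figure D2:**
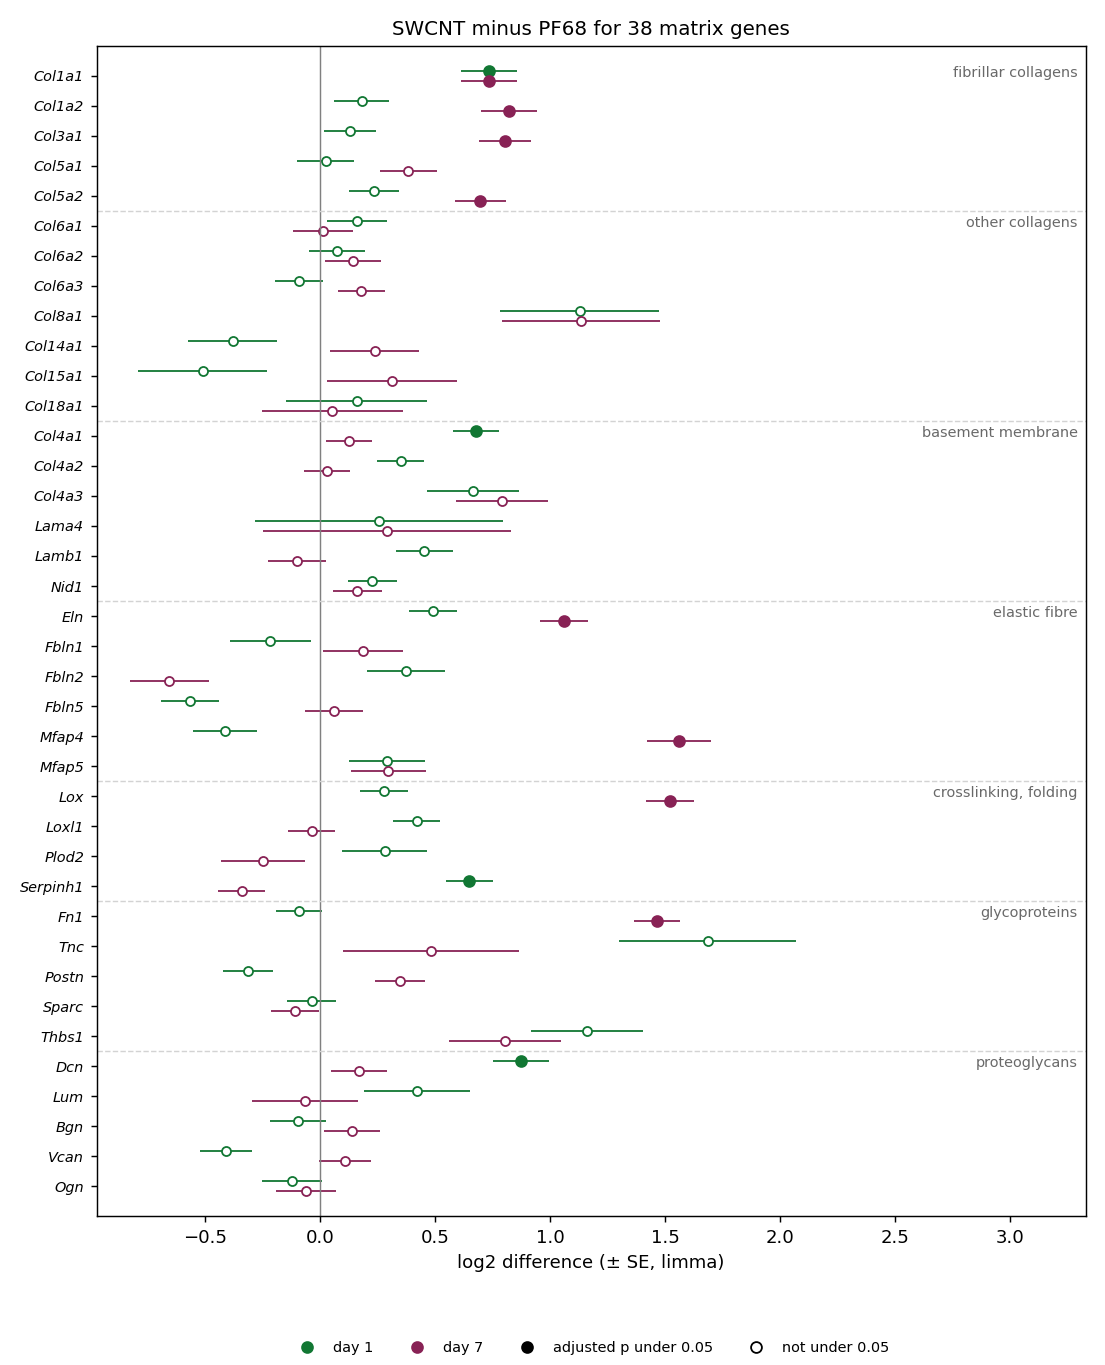
Log2 difference between SWCNT and PF68 (x axis, with limma's standard error as a bar) for the 38 measured genes (y axis, grouped by class) on day 1 and day 7, filled where the adjusted p is under 0.05. Filled day 7 points lie among the fibrillar collagens and at Eln, Mfap4, Lox and Fn1, and filled day 1 points at Col1a1, Col4a1, Serpinh1 and Dcn.

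The effect of SWCNT differed between the days for 4 of the 38 genes, or 10.53%, against 2.34% of all genes tested. Mfap4, Lox and Fn1 had the larger effect on day 7 and Serpinh1 on day 1, with the values given above. Over all genes 1.41% were called with a higher and 0.924% with a lower effect on day 7. The median over the 38 was 0.05 and over all genes 0.05. Without PF68 day 7 replicate 1 limma called 2 of the 38, without PF68 day 7 replicate 2 it called 1, and without any other array 0, with 12 to 18 at an unadjusted p under 0.05. Scaling on the spikes moved all genes by 0.75 and called 6017 genes with a higher and 110 with a lower effect, against 196 and 128.

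More genes of the list were called between the days than between treatments. In PF68 lungs, 18 of 38 genes (47.37%) were lower on day 7 than on day 1 and 1 was higher, against 8.86% of all genes lower and 8.86% higher, or 17.7% called in all. In SWCNT lungs, 15 of 38 (39.47%) were lower and 2 higher, against 6.7% and 9.59% of all genes, or 16.3% in all. The median change of the 38 was -0.49 in PF68 and -0.42 in SWCNT, beside 0.04 and 0.09 for all genes. In the PF68 comparison 31 of 38 changes were below 0, and in the SWCNT comparison 28 of 38. These comparisons use the same 8 arrays as those between treatments, and their values are given side by side. The beta-actin 3′ to 5′ difference was also higher on day 7 in both treatments, as given above, and its part in the changes with time was not tested. Cell type markers also changed with time. In PF68 limma called 4 of 13 fibroblast, 3 of 9 macrophage, 2 of 8 smooth muscle and 2 of 10 endothelial markers lower, and 2 of 5 adipocyte markers higher. In SWCNT it called 9 of 9 skeletal muscle, 5 of 5 adipocyte, 7 of 8 smooth muscle and 4 of 8 squamous markers lower. So were 5 of 10 endothelial and 2 of 13 fibroblast markers, while 5 of 9 macrophage markers were called higher. The fibroblast list also had 1 marker called higher, with a median of 0.08, and the macrophage list 1 called lower. Endothelial markers summed to 280.8 to 299.4 (PF68) and 290.2 to 301.1 (SWCNT) on day 1, and to 249.1 to 260.1 and 202.6 to 209.1 on day 7. The part of these markers in the changes with time was not tested. In PF68, 1 and 0 genes of the list were called without PF68 day 1 replicate 1 and 2 (21 at an unadjusted p under 0.05 in each case), and 14 to 17 without any other array. In SWCNT, 7 and 6 were called without SWCNT day 1 replicate 1 and 2, 5 and 3 without SWCNT day 7 replicate 1 and 2, 11 without either PF68 day 1 array and 16 without either PF68 day 7 array.

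In PF68, Lox fell most, by 3.04 on the log2 scale (adjusted p = 0.00225, 8.22-fold) and it fell by 1.80 in SWCNT (adjusted p = 0.00356, 3.47-fold). Its further probe sets gave -4.49 and -3.24 in PF68 and -2.69 and -1.79 in SWCNT. By the probe set used for each gene, all 5 fibrillar collagens fell in PF68. The falls were 1.34 for Col1a1, 1.16 for Col1a2, 0.84 for Col5a2, 0.83 for Col3a1 and 0.53 for Col5a1 (SE 0.11 to 0.12). In SWCNT, Col1a1 fell by 1.34 and Col1a2 by 0.52, while Col5a2, Col5a1 and Col3a1 had values of -0.38, -0.17 and -0.16 that did not pass. The second Col1a1 probe set gave 0.22 in PF68 and -0.02 in SWCNT, and so did not show the fall. For Col5a2 the second probe set gave -0.08 in PF68 and 0.71 in SWCNT. The further Col5a1 probe sets gave -0.35 and 0.36 in PF68 and 0.07 and -0.49 in SWCNT. Those of Col1a2 and Col3a1 gave -1.15 and -1.27 in PF68 and -0.21 and -0.12 in SWCNT. Col6a1, a chain of the beaded type VI filaments, read 3.98 and 4.08 (PF68) and 4.18 and 4.20 (SWCNT) on day 1, then 3.44 and 3.66 (PF68) and 3.47 and 3.65 (SWCNT) on day 7. The day 7 arrays of both treatments overlapped and lay below all day 1 arrays. Its level fell by 0.63 in SWCNT (adjusted p = 0.0288), and the value in PF68 was -0.48 (adjusted p = 0.0569).

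Type IV collagen fell in both treatments. Col4a1 fell by 1.31 in PF68 and 1.86 in SWCNT, Col4a2 by 0.70 and 1.02, and Col4a3 by 1.46 and 1.33. Nid1 fell by 0.44 and 0.51, though its dimmer second probe set gave 0.08 in PF68 and 0.01 in SWCNT. Further probe sets of Col4a1 and Col4a3 gave -0.84 and -1.82 in PF68 and -1.57 and -1.82 in SWCNT. The SE of these changes was 0.10 to 0.20.

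Of the elastic fibre genes, 2 of 6 fell and 1 rose in PF68, and 1 of 6 rose in SWCNT. In PF68, Eln fell by 0.66 and Mfap4 by 1.84, while Fbln2 rose by 0.77. In SWCNT, the Eln change was -0.10 and the Mfap4 change 0.14, neither of which passed, and Fbln5 rose by 0.53. A second Eln probe set gave -1.76 in PF68 and -1.24 in SWCNT, so that its value in SWCNT was far below that of the first. All 4 measured crosslinking and folding genes fell in SWCNT: beside Lox, Serpinh1 fell by 1.23, Plod2 by 0.78 and Loxl1 by 0.46. Their values in PF68 were -0.25, -0.25 and 0.00 and did not pass. The second Serpinh1 probe set gave 1.03 in PF68 and 0.48 in SWCNT, and the second Loxl1 probe set 0.23 and 0.45, opposite in sign to the SWCNT changes called.

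Fn1 went opposite ways: it fell by 0.94 in PF68 (adjusted p = 0.00885) and rose by 0.62 in SWCNT (adjusted p = 0.0151), though its dim second probe set gave -0.50 and -1.30, and the mean of both probe sets gave -0.34 in SWCNT. Thbs1 fell by 1.61 in PF68 and 1.97 in SWCNT, and Sparc by 0.51 and 0.58. Postn fell by 0.85 in PF68, and its value in SWCNT was -0.19. Among proteoglycans, Dcn fell by 1.33 and 2.04 and Vcan by 1.10 and 0.58, the latter 0.03 with its probe sets averaged. The dim second Dcn probe set gave 0.77 and 0.99, the opposite sign. Across the list, 15 of the 19 genes called in PF68 had further probe sets past the filter, and for 4 of these at least 1 had the opposite sign. In SWCNT it was 14 of 17, with 6 opposite, whereas between treatments it was 4 of 4 with 0 opposite on day 1 and 7 of 8 with 1 opposite on day 7. On the spike scale the split of all calls was 172 higher and 5756 lower in PF68, against 1227 and 1227, and 2200 higher and 620 lower in SWCNT, against 1329 and 928. All genes moved by -0.60 and 0.15, and 0 of the called genes of the list turned sign. The list's medians were then -1.09 and -0.27.

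**Figure D3:**
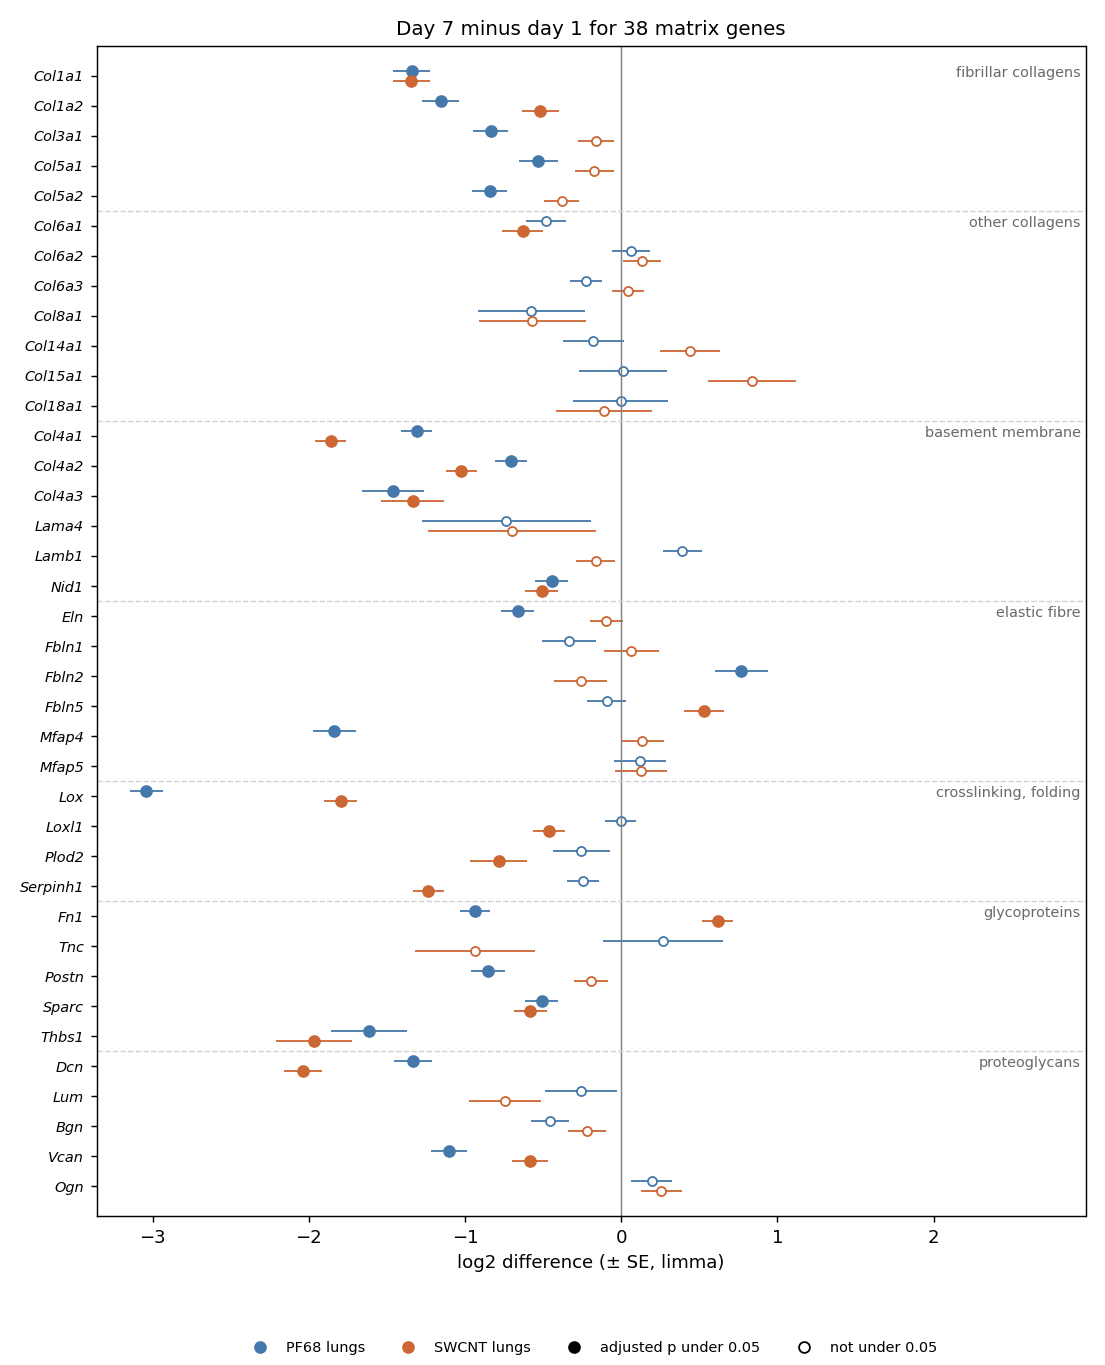
Log2 change from day 1 to day 7 (x axis, with limma's standard error as a bar) of the 38 measured genes (y axis, grouped by class) in PF68 and in SWCNT lungs, filled where the adjusted p is under 0.05. Most filled points lie left of 0 in both treatments, with Lox farthest left in PF68 at -3.04, and Fn1 lies on opposite sides of 0.

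**Figure D4:**
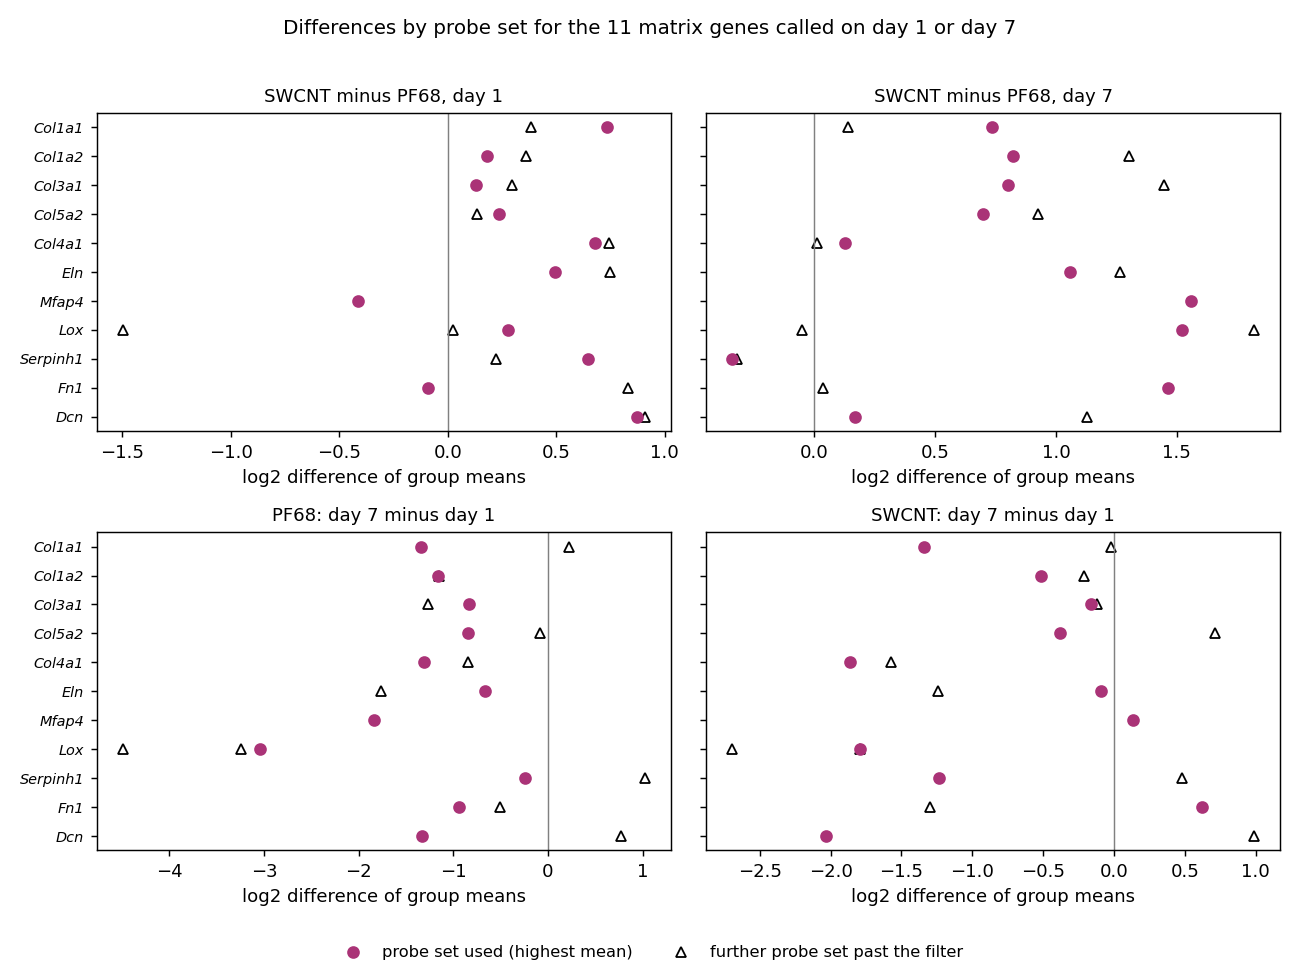
Log2 difference of group means (x axis) given by each probe set past the filter for the 11 genes called between treatments (y axis), in the 4 comparisons, without error bars. Circles mark the probe set used and triangles further ones. On day 7 the triangles of Col1a2, Col3a1, Col5a2 and Eln lie right of 0 with the circles. Those of Col1a1 (0.14), Fn1 (0.04) and 1 of 2 for Lox (-0.05) lie near 0.

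Other genes of the same pathways were taken from fixed lists. Their counts stand beside the shares of all genes tested: 2.17% called on day 1, 2.18% on day 7, 8.86% higher and 8.86% lower in PF68 with time, and 9.59% higher and 6.7% lower in SWCNT with time. Unadjusted p-values under 0.05 were far more common over all 13854 genes than calls. On day 1 they covered 1136 higher and 1436 lower genes, and on day 7 1810 and 1395. With time they covered 2474 higher and 2262 lower genes in PF68, and 2719 and 1829 in SWCNT. Of 26 further collagen genes 15 were measured, and limma called 0 of them in any comparison. At an unadjusted p under 0.05, 2 were higher on day 1 and 0 passed on day 7. With time, 1 of the 15 was lower in PF68, and in SWCNT 1 was higher and 1 lower. Their median difference was 0.08 on day 1 and 0.07 on day 7. Genes of collagen hydroxylation, folding and propeptide processing (19 measured of 23) had a median of 0.18 on day 1 and 0.11 on day 7. P4ha1, a catalytic subunit of the prolyl hydroxylase that stabilises the collagen triple helix, was the 1 gene called on day 1, at 1.02 ± 0.12 (adjusted p = 0.022). It read 2.23 and 2.35 (PF68) and 3.33 and 3.29 (SWCNT) on day 1, then 1.94 and 2.14 (PF68) and 2.62 and 2.73 (SWCNT) on day 7, SWCNT being above PF68 on both days. A second, dim P4ha1 probe set gave 1.00 on day 1, and the day 7 difference was 0.64 ± 0.12 (adjusted p = 0.0617). On day 7, 0 of the 19 were called, with 3 higher and 1 lower at an unadjusted p under 0.05. With time in PF68, 2 rose, Colgalt2 by 1.31 and P3h4 by 0.79, and 2 fell, Pcolce2 by 0.79 and P4hb by 0.56. In SWCNT 4 of 19 fell and 0 rose, with 1 higher at an unadjusted p under 0.05: P4ha2 fell by 0.86, P4ha1 by 0.64, P4hb by 0.55 and Fkbp14 by 0.49.

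Further elastic fibre and crosslinking genes (14 measured of 16) had 0 calls on day 1, also at an unadjusted p under 0.05, and 0 on day 7, with 2 higher and 4 lower at an unadjusted p. The nearest was Ltbp2, a microfibril-associated protein, at 0.77 ± 0.13 on day 7 (adjusted p = 0.0501). With time 2 rose and 2 fell in PF68, and 3 rose and 2 fell in SWCNT. Efemp1 rose in both, by 1.23 and 0.87. Ltbp1 fell by 0.72 and 0.78 and Ltbp4 by 0.66 and 1.20, while Ltbp3 rose by 0.83 in PF68, and Ltbp2 by 0.59 and Mfap2 by 0.50 in SWCNT. In further basement membrane genes (11 measured of 13), the laminin chain Lama3 was called on day 7 (1.01 ± 0.13, adjusted p = 0.0368). At an unadjusted p under 0.05, 6 of the 11 were higher on day 7, Lama3 included, and 0 lower. The median day 7 difference of the 11 was 0.34. On day 1, 0 of 11 were called, with 1 higher at an unadjusted p under 0.05. Lama3 read 1.96 and 1.95 (PF68) and 2.30 and 2.23 (SWCNT) on day 1, then 0.81 and 1.01 (PF68) and 1.80 and 2.04 (SWCNT) on day 7, so that the PF68 day 7 arrays alone were low. With time in PF68, 5 of the 11 fell, among them Lama5 by 1.33, Agrn by 1.18, Lamb3 by 1.16 and Lama3 by 1.04. In SWCNT 2 of 11 fell, Lamc1 by 0.83 and Lamb2 by 0.63.

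Further proteoglycan and matricellular genes (24 measured of 28) had 1 call on day 1, Matn4, a matrilin, at -0.91 ± 0.13 (adjusted p = 0.0396), and 0 on day 7, with 4 higher and 2 lower at an unadjusted p under 0.05. With time in PF68, 4 of 24 fell and 2 rose: Vwa1 fell by 1.18, Prelp by 0.95, Sparcl1 by 0.85 and Igfbp7 by 0.54, and Matn4 rose by 0.86 and Ccn1 by 0.74. In SWCNT 3 rose, Matn4 by 1.31, Ccn1 by 1.14 and Ccn5 by 0.72, and 4 fell, Sparcl1 by 1.00, Ecm1 by 0.64, Igfbp7 by 0.61 and Prelp by 0.56.

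TGF-beta is the main signal known to induce fibrillar collagen and Lox in mesenchymal cells. Of 20 listed genes of its signalling 17 were measured, with a median difference of -0.20 on day 1 and -0.07 on day 7. The ligand Tgfb3 read 1.13 and 1.12 (PF68) and 2.37 and 2.43 (SWCNT) on day 1, then 1.00 and 1.31 (PF68) and 1.00 and 0.80 (SWCNT) on day 7. The SWCNT day 1 arrays alone stood high, by 1.27 ± 0.14 (adjusted p = 0.0187), and the effect on day 7 was lower by 1.52 (-1.52 ± 0.20, adjusted p = 0.0348). On day 7, 0 of 17 were called, with 2 higher and 3 lower at an unadjusted p under 0.05. With time in PF68, 5 of 17 fell, Smad6 by 1.06, Tgfbr2 by 0.89, Tgfb1 by 0.87, Tgfbr3 by 0.84 and Eng by 0.64, and 2 rose, Itgav by 0.78 and Smad4 by 0.50. In SWCNT 6 of 17 fell and 0 rose, with 4 higher at an unadjusted p under 0.05. Tgfb3 fell by 1.498, Smad6 by 0.94, Tgfb1 by 0.86, Tgfbr3 by 0.86, Eng by 0.83 and Tgfbr2 by 0.50 there.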

How the data were processed

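Total RNA of lung lobes was labelled as biotin cRNA and hybridised to Affymetrix arrays, per the labels' protocols. The deposited values, read here as log2, were made by the authors with RMA, per the submitters' processing notes. No source used here gives the log base or an offset. The sorted values of all 8 arrays were identical, so the arrays had been quantile-normalised, which sets aside shifts common to all genes. The number of arrays limits the precision. Of 45101 probe sets, 34939 had 1 gene symbol, 931 several and 9159 none, by GEO's platform annotation updated through RefSeq gene IDs (GRCm38.p6, 34754 of 34958 matched). The 64 control probe sets and 8 with a missing value were left out.

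Probe sets were kept (27368) where 2 or more of the 8 arrays reached the array median, and for each gene the one with the highest mean, which left 13854 genes. A cell-means model over all 8 arrays was fitted with lmFit and moderated with eBayes (limma 3.58.1, R 4.3.3). It had 4 residual degrees of freedom and 1.81 from the prior, with Benjamini-Hochberg adjustment over all genes and a threshold of 0.05. "Called" means past it. The fit was tested on simulated data, and figures were drawn with matplotlib 3.10.9. Alternatives covered the filter, probe sets, scaling, array weights, variance model, arrays fitted, replicate block and threshold.

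Genes given with values for each array were those called in any of the 5 comparisons and, per class and day, the 2 with the largest difference. From each further list, up to 4 called genes per comparison were named, and Mfap2, Ccn1, Igfbp7, Ecm1, Prelp, Eng, Tgfbr2, Itgav and Smad4 were added after their values were seen, to show both directions. The genes and lists were chosen with earlier results of these data known.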

Additional observations from a re-analysis of the deposited data

Results flagged for a closer look

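The effect of SWCNT differed between day 1 and day 7, by limma's interaction term, for 5 genes named in the text. Mfap4 had a difference of 1.97 (log2, day 7 effect minus day 1 effect, SE 0.20), with SWCNT below PF68 on day 1 and above it on day 7. For Fn1 the value was 1.56 (SE 0.14), and the day 1 groups were close together by the probe set used. Its dim second probe set went the other way, with 0.83 on day 1 and 0.04 on day 7. The lowest Fn1 value over the alternatives was 0.38. For Lox it was 1.24 (SE 0.15), with SWCNT above PF68 on both days by the probe set used, but called on day 7 alone. Its further probe sets gave 0.03 and -1.497 on day 1, and 1.82 and -0.05 on day 7. Serpinh1 had -0.99 (SE 0.14), with SWCNT above PF68 on day 1 and below it on day 7, though the day 7 difference was not called. Spike scaling turned the sign of that day 7 difference. The value for Serpinh1 was then -0.24 and was not called. For Tgfb3 it was -1.52 (SE 0.20), with the SWCNT day 1 arrays alone high.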

How the results depend on the processing

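The counts of called genes, 4 on day 1, 8 on day 7, 4 for the difference between the days, 19 in PF68 with time and 17 in SWCNT with time, were within 1.5 times of these under the settings not named here. With no filter they were 0, 2 and 2 in the first 3 comparisons (16, 15 and 16 at an unadjusted p under 0.05) and 10 in SWCNT with time. With the mean of a gene's probe sets they were 1 on day 1, 2 for the difference, 12 and 9 with time. Spike scaling gave 29 on day 7, 23 for the difference, 30 and 11 with time, and on day 1 again 4, but 1 higher and 3 lower. An intensity trend gave 14 on day 1 and 14 for the difference, and array weights gave 4 on day 7. A threshold of 0.1 gave 7 on day 1 and 8 for the difference. With only the 4 arrays compared, limma called 0 on day 1, on day 7 and in both treatments with time (16, 11, 22 and 21 at an unadjusted p under 0.05). Same-numbered arrays did not deviate together (correlations from -0.006 to 0.011), so the numbers do not pair them, and the replicate block gave 0 on day 1, 2 on day 7 and 0 for the difference (16, 15 and 17 at an unadjusted p). Leaving out 1 array gave 0 to 0 on day 1, 0 to 1 on day 7, 0 to 2 for the difference, and 0 to 17 and 3 to 16 with time. Spike scaling turned the sign of 6 of the 38 genes on day 1, 7 on day 7, 13 for the difference, and 6 and 2 with time. Of these Loxl1 (0.49), Sparc (0.42) and Ogn (0.47) were then called on day 7. With averaged probe sets 2 called genes turned sign in SWCNT with time (Fn1 -0.34 and Vcan 0.0312). The cause of these changes was not tested. Of the other values of named genes, 978 kept their side of the threshold (19 of them, not called, with the sign turned), 136 lost and 37 gained the call. On leaving out 1 array 682 kept their side (17 with the sign turned) and 246 lost the call.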
